A study of Mus musculus with 15 samples.

Results

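The MYC network was described here through 9 genes: Myc, Mycn and Mycl, Max, Mxd1, Mxi1, Mxd4, Mnt and Mlx. For each gene all called peaks that overlapped its span in the mouse build mm10, widened by 20 kb on each side, were collected by target and library. These 9 of 21883 protein-coding genes held 177 of the 95112 peaks in 12 deposited lists.

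The peaks came from CUT&Tag, in which an antibody tethers a transposase that cuts and tags the DNA beside its target. The cells were HPC-7, a mouse line of early blood character obtained from embryonic stem cells, with about 150000 cells per reaction. Control cells, named wild type in the titles and shLUC (an shRNA against luciferase by its name) in the descriptions, were profiled for the promoter mark H3K4me3, for the transcription factor YY1 and for the cohesin subunit SMC3. A second arm, in which an shRNA targeted YY1 (shYY1), was profiled for SMC3 alone, and each of these 4 groups had 3 libraries, called biological replicates in the labels. All groups are 1 cell line, and YY1 in shYY1 cells was not analysed here, so the depth of the knockdown is unknown. The 3 IgG libraries were not analysed here, so a called peak cannot be told apart from background cutting at open promoters. The first SMC3 library of each arm names Abcam in its description and the others do not, so a change of antibody within the arms cannot be told apart from replicate spread.

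The lists give a start, an end and a summit and no score or read count, so depth is unknown and a peak is a call, not a level. H3K4me3 lists held 16763 to 17895 peaks, YY1 lists 3750 to 10699, control SMC3 lists 2061 to 4595 and shYY1 SMC3 lists 2631 to 3213. The third YY1 and the third control SMC3 library had the shortest lists of their groups, and both matter below. H3K4me3 lay at a start of 10 of 12 early blood genes (all but Lmo2 and Lhx2), of 0 of 8 embryonic stem cell genes, 0 of 6 lymphocyte genes and 1 of 8 liver, neural and muscle genes (Apoa2).

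MYC, N-MYC and L-MYC are transcription factors that drive growth and biosynthesis, and they bind DNA only as a dimer with MAX. MAX also pairs with the MXD proteins, with MXI1 and with MNT, which recruit the SIN3 corepressor and compete with MYC for the same sites, and MLX pairs with MXD1, MXD4, MNT and the sugar-sensing MLXIP proteins. The preferred site of these dimers is the E-box CACGTG. In blood progenitors the balance between MYC and the MXD proteins is known to accompany the choice between proliferation and differentiation.

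The promoters of 6 members are shown because they cover the range of patterns found: all targets in every library (Mxd4 and Mxd1), a split promoter (Mnt), a promoter missed by the shortest control lists (Max), H3K4me3 with no YY1 or SMC3 peak (Mlx), and an internal start of Mxi1 just before an H3K4me3 peak, with no peak of any target over it. Each run holds 250 bases before and the first 20 bases from a gene start of the RefSeq promoter table (GRCm38.p6, the assembly of mm10), 5′ to 3′ on the strand of the gene. Capitals mark CACGTG and the motif ACTACA followed, after any 2 bases, by TCCC, each searched on both strands. The second motif was chosen after the sequences had been read. No 2 of the marked matches overlapped.
Mxd4, minus strand, chr5:34187691-34187960: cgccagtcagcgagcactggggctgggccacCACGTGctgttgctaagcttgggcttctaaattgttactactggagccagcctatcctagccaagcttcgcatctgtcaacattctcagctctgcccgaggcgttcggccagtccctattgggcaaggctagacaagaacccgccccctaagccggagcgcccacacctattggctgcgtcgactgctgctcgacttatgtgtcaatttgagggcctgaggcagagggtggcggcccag
Mxd1, minus strand, chr6:86669140-86669409: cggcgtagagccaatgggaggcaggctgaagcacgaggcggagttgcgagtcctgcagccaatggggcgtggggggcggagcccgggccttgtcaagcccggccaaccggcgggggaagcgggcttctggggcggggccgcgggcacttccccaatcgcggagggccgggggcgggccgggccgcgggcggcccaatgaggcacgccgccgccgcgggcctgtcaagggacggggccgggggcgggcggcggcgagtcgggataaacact
Mnt, plus strand, chr11:74830674-74830943: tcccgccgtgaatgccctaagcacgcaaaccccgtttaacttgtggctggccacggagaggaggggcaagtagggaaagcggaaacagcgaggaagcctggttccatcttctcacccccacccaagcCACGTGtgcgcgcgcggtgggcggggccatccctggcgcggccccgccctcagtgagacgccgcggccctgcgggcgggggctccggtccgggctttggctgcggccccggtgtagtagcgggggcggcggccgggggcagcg
Max, minus strand, chr12:76962229-76962498: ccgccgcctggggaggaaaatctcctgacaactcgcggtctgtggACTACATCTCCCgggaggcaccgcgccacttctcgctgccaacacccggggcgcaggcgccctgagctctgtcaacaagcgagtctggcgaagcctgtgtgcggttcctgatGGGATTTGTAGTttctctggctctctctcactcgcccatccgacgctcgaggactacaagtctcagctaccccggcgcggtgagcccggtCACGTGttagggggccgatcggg
Mlx, plus strand, chr11:101087040-101087309: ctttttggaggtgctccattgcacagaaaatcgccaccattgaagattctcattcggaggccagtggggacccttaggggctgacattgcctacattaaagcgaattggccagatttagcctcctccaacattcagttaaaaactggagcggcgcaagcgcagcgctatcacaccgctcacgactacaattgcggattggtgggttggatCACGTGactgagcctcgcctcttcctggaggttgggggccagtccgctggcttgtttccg
Mxi1, internal start, plus strand, chr19:53329163-53329432: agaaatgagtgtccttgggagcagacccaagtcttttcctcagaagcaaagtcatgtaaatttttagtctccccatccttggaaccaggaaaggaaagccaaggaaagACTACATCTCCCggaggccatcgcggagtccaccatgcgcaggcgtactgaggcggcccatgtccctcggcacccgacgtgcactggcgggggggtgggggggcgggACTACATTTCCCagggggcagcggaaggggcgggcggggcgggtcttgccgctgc

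The motif CACGTG was found once each before the starts of Mxd4 (first base 219 bases before the start), Mnt (123 before) and Mlx (40 before), and across the start of Max, where its first base lay 3 bases before. It is found in 6.57% of the 32851 listed mouse promoter windows of 270 bases. The motif that opens with ACTACA occurred in 2 copies at Max and in 2 copies at the internal start of Mxi1, where no H3K4me3 peak covered the window either, against 1.76% of windows with any copy. The YY1 motif AANATGGC, held by 4.64% of windows, was in none of the 10 windows of the 8 members listed in the table, among them Mycn, Mycl and the other starts of Mxi1. The table did not list Myc. A match here is a description of letters and says nothing of binding.

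Peaks covered these windows unevenly. Over the Mxd4 window YY1 peaks covered 253, 265 and 206 of 270 bases, control SMC3 peaks 206, 204 and 206, and shYY1 SMC3 peaks 199, 218 and 218. The Max window lay wholly inside the YY1 peaks of replicates 1 and 2 and was untouched in replicate 3. At Mlx and at the internal start of Mxi1 no YY1 or SMC3 peak touched the window in any library.

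Counted within 1000 bp of a gene start, all 9 members had H3K4me3 in 3 of 3 libraries, 6 had YY1 in at least 2 of 3, 5 had SMC3 in control cells and 4 had SMC3 in shYY1 cells. Over all protein-coding genes these shares were 47.6% for H3K4me3, 29.2% for YY1, 14.2% for control SMC3 and 10.9% for shYY1 SMC3. With a peak asked for in 3 of 3 libraries the members numbered 9, 4, 3 and 3, beside 47.2%, 15.0%, 7.28% and 7.22% of all genes. Among genes with H3K4me3 at a start they were 61.3%, 29.7% and 22.8% for the last 3 targets, so that 6 of 9 with YY1 is near the background. All 5 members with control SMC3 at a start also had YY1 there, as had 98.3% of all genes with control SMC3 at a start. In the other direction, 5 of the 6 members with YY1 at a start had control SMC3, beside 47.6% of all genes with YY1 there. For Myc, whose start was not listed, either end of the span was used, and all of its YY1 and SMC3 peaks lay at the lower end.

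**Figure D1:**
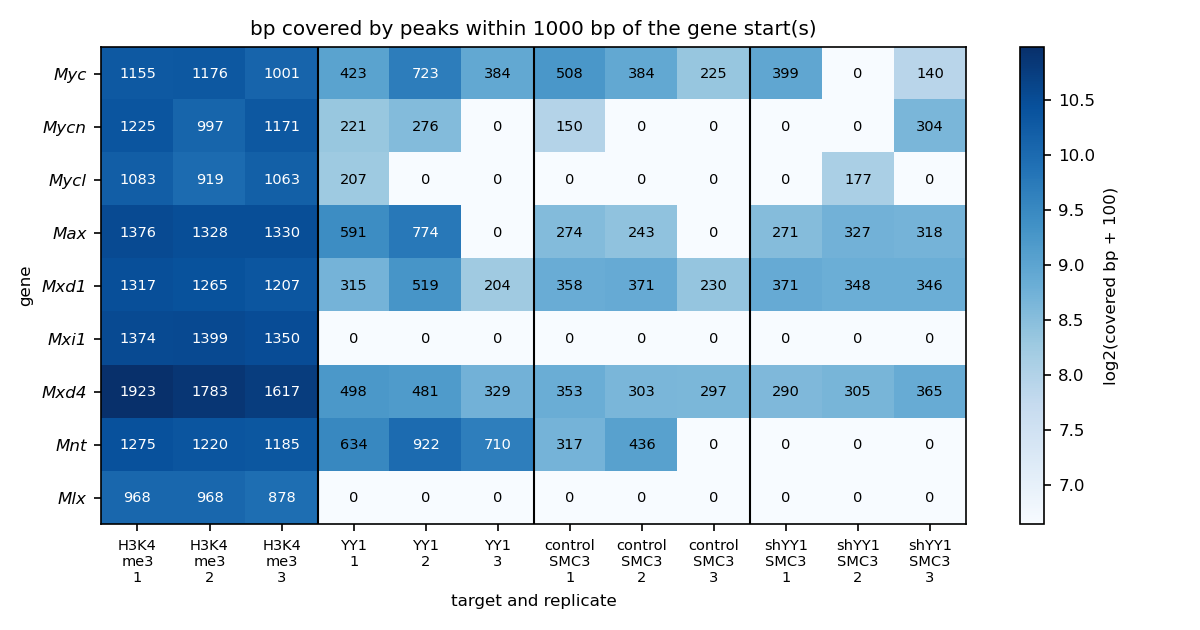
Base pairs covered by called peaks within 1000 bp of the gene start or starts, for 9 genes (rows) in 12 libraries (columns, by target and replicate); colour is log2(covered bp + 100) and the printed numbers are bp. H3K4me3 covered 878 to 1923 bp in every cell of its columns, while Mxi1 and Mlx are at 0 for YY1 and SMC3 in every library.

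In the widened spans the counts were 9 of 9 for H3K4me3, 9 for YY1, 6 for control SMC3 and 6 for shYY1 SMC3, beside 62.3%, 46.2%, 26.2% and 20.5% of all genes. In 3 of 3 libraries they were 9, 7, 5 and 5, beside 61.4%, 26.9%, 14.5% and 14.2%. With no widening they were 9, 5, 3 and 3, because much of what the wider window collects belongs to neighbours or lies just outside the span. The share of all genes was not counted with no widening, so these counts cannot be set against a background. Merged over all libraries, the peaks formed 28 sites: 13 at an own start, 6 elsewhere inside a span and 9 in the flanks, of which 6 had the start of another gene within 1000 bp. YY1 was called in at least 2 libraries at 16 sites and control SMC3 at 9. All 9 control SMC3 sites had YY1, as had 94.7% of the 3611 control SMC3 sites of the genome merged in the same way. All 16 YY1 sites had H3K4me3, as had 94.7% of the 7706 YY1 sites, so both overlaps are the general pattern of these lists.

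**Figure D2:**
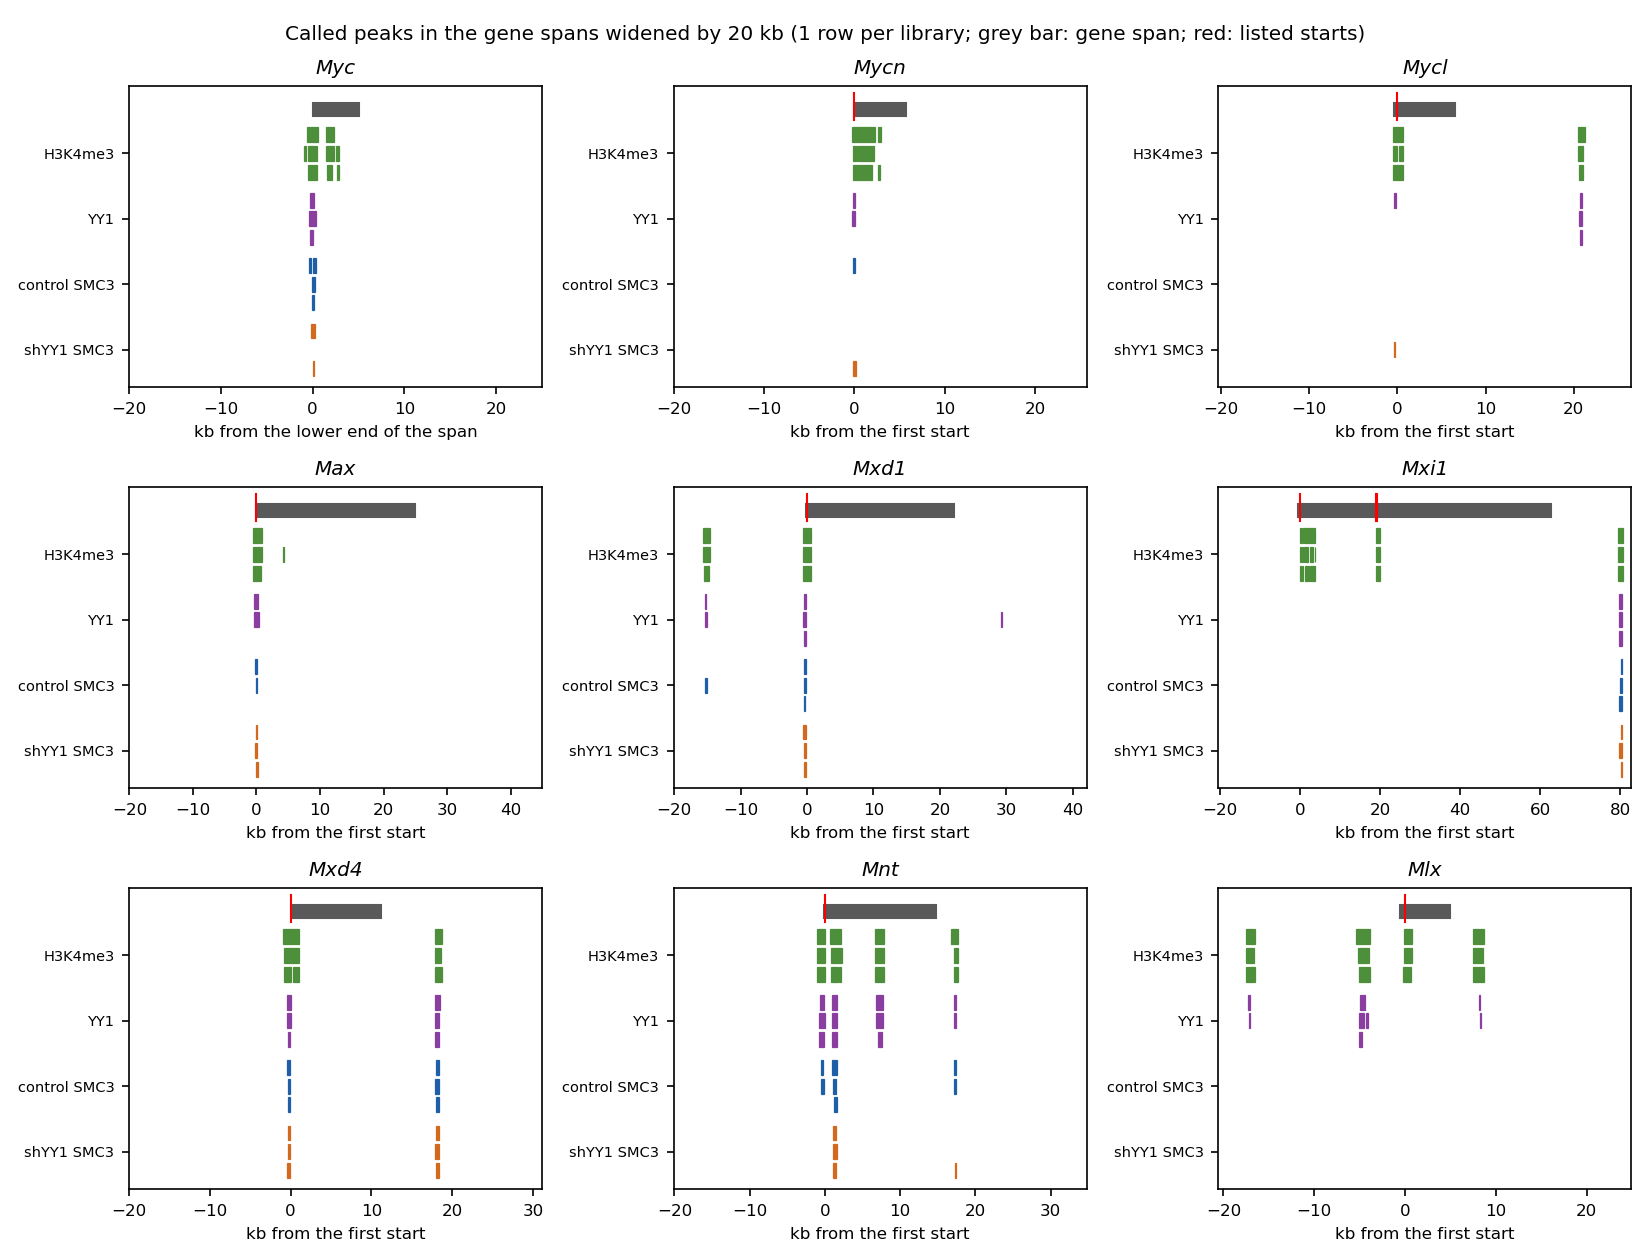
Called peaks (coloured boxes, 1 row per library, 3 rows per target) in the span of each gene widened by 20 kb; the x axis is distance in kb from the first listed start in the direction of the gene (for Myc, from the lower end of its span), the grey bar is the span and red lines are listed starts. YY1 and SMC3 sit at the start of Myc, Mxd1 and Mxd4, whereas at Mxi1 and Mlx they appear only at flanking sites or not at all.

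Myc (chr15:61985341-61990361), the founding oncogene of the family, carried all targets at its lower end. H3K4me3 covered 1155, 966 and 1001 bp of the site chr15:61984767-61985921. YY1 peaks there were 423, 723 and 384 bp long. Control SMC3 covered 508, 384 and 225 bp and shYY1 SMC3 399, 0 and 140 bp, so that YY1 and control SMC3 were called in every library and the second shYY1 library had no peak. YY1 summits lay 262, 153 and 93 bp below the lower end, whereas the SMC3 summits nearest to it lay 50 to 108 bp above it in control and 46 and 53 bp above it in shYY1. The first control library had a further SMC3 peak with its summit 148 bp below the end. No YY1 or SMC3 was called at the H3K4me3 site inside the gene, chr15:61986775-61987664, which H3K4me3 marked in 3 of 3 libraries.

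Mycn (chr12:12936093-12941836), the paralogue best known from neural tumours and needed with Myc in blood stem cells, had the longest H3K4me3 peak at a start among the members. That peak was 1746 to 2465 bp long and lay at the 99.1 ± 0.95 percentile of peak length in its library (SD, n = 3). YY1 covered 221, 276 and 0 bp at its start, control SMC3 150, 0 and 0 bp and shYY1 SMC3 0, 0 and 304 bp. SMC3 was thus called in 1 library of each arm, below the 2 libraries asked for, in the first control and the third shYY1 library.

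Mycl (chr4:122995588-123002490) encodes L-MYC, the least studied of the 3. Its start carried H3K4me3 in 3 of 3 libraries, YY1 in 1 (207 bp), control SMC3 in 0 and shYY1 SMC3 in 1 (177 bp). The reproducible YY1 of its window lay over the start of the neighbouring tRNA-modifying gene Trit1 (chr4:123016466-123017244), with peaks of 235, 291 and 212 bp. No SMC3 peak of either arm was found at Trit1.

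Max (chr12:76937269-76962323), the shared partner of the network, had H3K4me3 peaks of 1376, 1328 and 1330 bp at its start. YY1 covered 591, 774 and 0 bp, control SMC3 274, 243 and 0 bp and shYY1 SMC3 271, 327 and 318 bp. The libraries without a peak were the third of YY1 and the third of control SMC3, which have the shortest lists, and whether list length accounts for the missing calls was not tested. Of the 1579 genes with shYY1 SMC3 at a start in 3 of 3 libraries, 23.5% likewise had control SMC3 in fewer than 3.

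Mxd1 (chr6:86647044-86669234), an antagonist of MYC that rises as blood cells differentiate, carried every target in every library. At its start YY1 covered 315, 519 and 204 bp, control SMC3 358, 371 and 230 bp and shYY1 SMC3 371, 348 and 346 bp. The shYY1 values lay within the range of the control values or equalled its highest value. Its summits were at nearly the same base for different antibodies: the position 297 bp before the start, or the base beside it, was the summit in 2 H3K4me3, 2 YY1, 2 control SMC3 and 3 shYY1 SMC3 libraries. A second site, upstream, lay over the start of the splicing gene Snrnp27, with YY1 in 2 libraries and control SMC3 in 1.

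Mxd4 (chr5:34176580-34187710), another MXD repressor, likewise had every target in every library at its start. YY1 covered 498, 481 and 329 bp there, control SMC3 353, 303 and 297 bp and shYY1 SMC3 290, 305 and 365 bp, so the arms overlapped. The second site of its window, chr5:34169002-34169889 in the flank, was shared by the starts of Haus3 and Poln. It also carried every target in every library, with control SMC3 of 425, 466 and 369 bp and shYY1 SMC3 of 380, 448 and 370 bp. More than 300 of the bp counted for Mxd4 in each SMC3 library therefore came from a neighbour.

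Mnt (chr11:74830806-74845725), the MAX partner expressed in most cells, held 4 H3K4me3 sites, each called in 3 of 3 libraries. The first, chr11:74829854-74830919, ended just before the start; YY1 covered 600, 826 and 678 bp there, control SMC3 263, 436 and 0 bp and shYY1 SMC3 0, 0 and 0 bp. Of all 3100 genes with control SMC3 at a start in at least 2 libraries, 12.5% had none in shYY1, so Mnt shares this with many genes. The third control library, the shortest SMC3 list, had no peak there either.

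The second Mnt site, chr11:74831646-74833131, lay downstream of the start inside the gene and kept SMC3 calls in all 6 libraries. Control SMC3 covered 595, 496 and 396 bp and shYY1 SMC3 351, 438 and 394 bp there. The base 1225 bp after the start or the one beside it was a summit in 3 H3K4me3, 3 YY1, 1 control SMC3 and 2 shYY1 SMC3 libraries. Because this site falls mostly beyond 1000 bp, shYY1 SMC3 at the start of Mnt is 0 of 3 libraries within 1000 bp and 3 of 3 within 2500 bp.

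The third Mnt site, chr11:74837591-74838794, inside the span and far from either end, had long YY1 peaks of 935, 940 and 487 bp and no SMC3 peak in any of the 6 SMC3 libraries. These YY1 peaks were at percentiles 98.9, 97.5 and 80.1 of length in their lists. The fourth, chr11:74847736-74848587, lay beyond the far end of the span, with YY1 and control SMC3 in 2 libraries each and shYY1 SMC3 in 1. Mnt thus held long YY1 peaks both with and without SMC3 within a few kb.

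Mxi1 (chr19:53310128-53373293), also a MXD-type repressor, differed from Mxd1 and Mxd4 at its starts. It had H3K4me3 at both clusters of its 3 listed starts in 3 of 3 libraries. A broad site of 2033 to 2727 bp in summed peak length lay inside the gene (chr19:53311619-53314378). No YY1 or SMC3 peak lay within 1000 bp of a start, or elsewhere in the span, in any library. Inside the span alone, Mxd1 had no YY1 or SMC3 peak either and Mxd4 no SMC3 peak. Their peaks at the start lay just outside the span. The YY1 and SMC3 of the Mxi1 window came from 1 flanking site over the start of the splicing gene Smndc1, chr19:53389854-53391137. Control SMC3 covered 331, 486 and 549 bp there and shYY1 SMC3 239, 619 and 309 bp.

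Mlx (chr11:101086707-101092207), the MAX-like hub of the branch that senses sugars, had H3K4me3 of 968, 968 and 878 bp at its start. It had no YY1 and no SMC3 there, and no SMC3 peak in its whole window in any of the 6 libraries. YY1 was called in its window at 3 neighbouring sites: over the start of Naglu in 2 libraries, over Coasy in 3 (506, 776 and 313 bp) and over the start of Psmc3ip in 2. The promoter sequence shown above for Mlx carries an E-box, as do those of Mxd4, Mnt and Max, which had YY1 and SMC3.

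The promoters also differed in H3K4me3 length. The longest peak at a start averaged the 99.1 percentile for Mycn, 88.3 ± 2.7 for Max, 86.5 ± 20.3 for Mxd4, 85.6 ± 9.0 for Mnt, 85.0 ± 3.0 for Mxd1, 72.1 ± 1.1 for Myc, 64.7 ± 6.5 for Mlx, 59.8 ± 21.3 for Mycl and 59.5 ± 7.1 for Mxi1 (SD, n = 3). Neighbours from Max to Mxd1 in this order differed by less than their spread, as did Mlx, Mycl and Mxi1. The large SD of Mxd4 and Mycl came from a peak that was split in 1 library, at 892 bp against 1992 for Mxd4 and 511 against 1083 for Mycl. The 6 members with YY1 at a start in at least 2 of 3 libraries, Mycn to Myc, stood first in this order. Mlx, Mycl and Mxi1, without it, stood last, which was not tested. H3K4me3 length did not order YY1 peak length. Mycn, with the longest H3K4me3, had short YY1 peaks at percentiles 26.3 and 31.2, while YY1 at Max was at 89.9 and 93.6.

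Myc is known in blood cells to be controlled by a distant cluster of enhancers downstream of the gene, so all peaks between its protein-coding neighbours were listed. These were A1bg, 1.06 Mb below, and Gsdmc, 1.79 Mb above. This stretch held 11 merged sites, 8 of them with peaks in 2 or more of the 12 libraries. YY1 was called in at least 2 of 3 libraries at 4, control SMC3 at 4 and shYY1 SMC3 at 3. One of these was the Myc start, and the other 3 lay together 1662.6 to 1680.2 kb from it, with no gene overlapping them in the annotation.

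The middle site of this distal group, chr15:63657885-63658494, was the most constant. YY1 peaks were 455, 494 and 377 bp long, control SMC3 peaks 264, 350 and 393 bp and shYY1 SMC3 peaks 0, 243 and 273 bp, beside short H3K4me3 peaks of 303, 311 and 303 bp. The first of the group, chr15:63647328-63648624, had YY1 of 335, 659 and 0 bp, control SMC3 of 231, 170 and 0 bp and shYY1 SMC3 of 328, 0 and 129 bp. The last, chr15:63665409-63665757, had no H3K4me3, YY1 of 341, 303 and 0 bp, control SMC3 of 187, 184 and 0 bp and no shYY1 SMC3. At the first and the last the missing control calls were again those of the third YY1 and the third control SMC3 library.

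Such sites were rare in these lists: 132 of 7814 reproducible YY1 regions (1.69%) and 81 of 3627 control SMC3 regions (2.23%) lay more than 100 kb from every protein-coding gene. At the lower end of Pvt1, a long non-coding RNA gene beside Myc, H3K4me3 covered 1898, 1728 and 1767 bp with no YY1 or SMC3 in any library. The distal sites were not matched to published enhancer coordinates, and peak lists do not show contact with Myc.

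**Figure D3:**
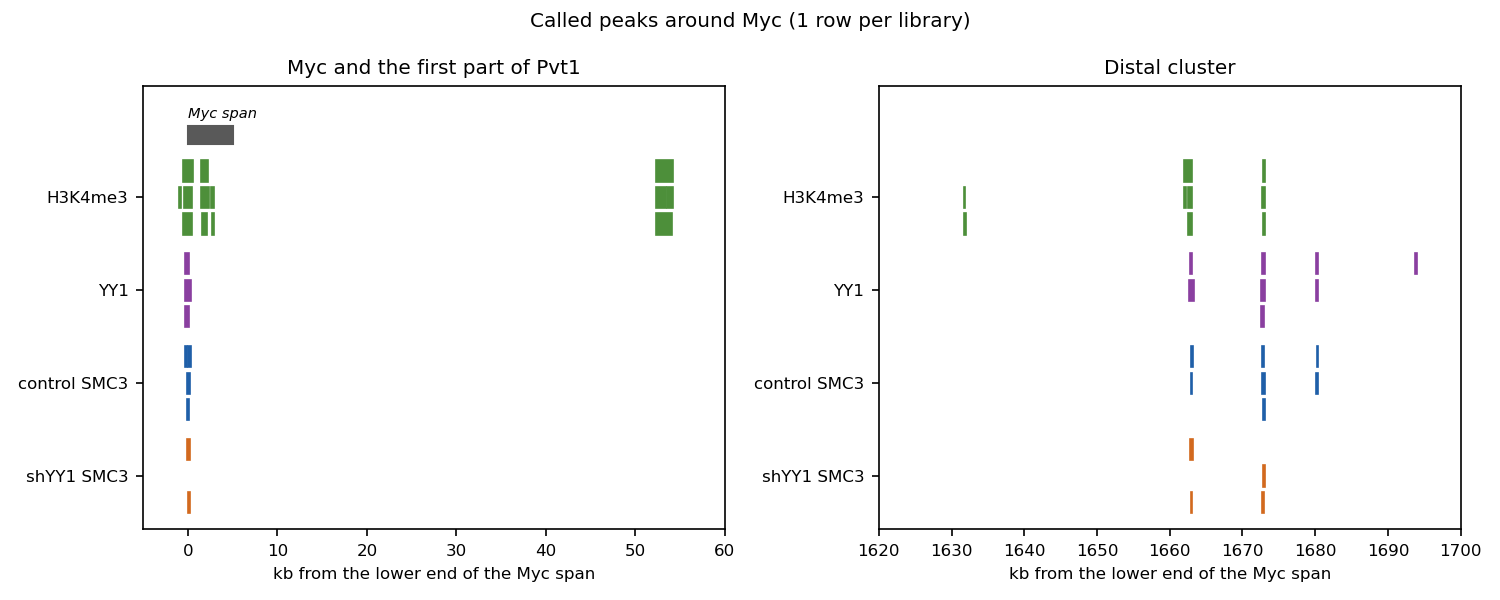
Called peaks (boxes, 1 row per library, 3 rows per target) around Myc, with distance in kb from the lower end of its span on the x axis; the left panel covers the gene and the near end of Pvt1, the right panel the distal group. YY1 and control SMC3 coincide at 0 kb and at about 1662.6, 1672.8 and 1680.2 kb, and shYY1 SMC3 is also called at each of these but 1680.2 kb. The Pvt1 end at 53.3 kb carries H3K4me3 alone.

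The comparison of SMC3 between shYY1 and control cells used the bp of each widened span covered by SMC3 peaks. Neither arm lay wholly above or below the other at any member, and 0 of 7 members with enough SMC3 to be tested passed 0.05. With 3 libraries a side the exact two-sided permutation test cannot go below 0.1, so no gene could pass, and 0 of 6541 genes tested had an unadjusted p under 0.05. Over all genes tested, shYY1 lay wholly below control at 5.53% and wholly above at 0.413%. The median difference was -51.3 bp over all genes and -32 bp over the 7 members. The shYY1 mean was below the control mean at 5 of these 7 members and at 73.6% of all genes. The median over all genes depended on the setting. It was -68.7 bp with 50 kb of widening and 0 bp with no widening or within 1000 bp of the start. With equal numbers of longest peaks it was also 0 bp, and after scaling to all bp covered in a library 6.93 bp.

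Mnt had the largest difference among the members. Its control values were 1059, 1205 and 396 bp and its shYY1 values 351, 438 and 567 bp, a difference of -435 bp (exact permutation p = 0.3, adjusted p = 0.98 with Benjamini-Hochberg over all genes tested). The third control library lay inside the shYY1 range, and without it the difference was -680 bp and the arms did not overlap. Without the second control library it was -275.5 bp, and it was -251 bp within 1000 bp of the start, -109 bp with no widening and -241 bp after scaling. Myc differed by -193 bp (372 ± 142 in control, 180 ± 202 in shYY1, SD, n = 3, exact permutation p = 0.3, adjusted p = 0.98), and its arms overlapped. The size of the Myc difference moved with single libraries: it was -302 bp without the first shYY1 library, where the arms no longer overlapped, -103 bp without the second shYY1 library and -125 bp without the first control library. It was -99.3 bp with no widening of the span and -121 bp after scaling to all bp covered in a library. With 1 library left out, arms separate more easily, and the share of all genes that did so was not counted.

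Max went the other way, at 172 ± 150 bp in control and 305 ± 30 in shYY1 (SD, n = 3), a difference of 133 bp (exact permutation p = 0.2, adjusted p = 0.98). That difference rested on the third control library, which had no peak; without it the difference was 46.8 bp. It was 223 bp after scaling, 214 bp with equal numbers of longest peaks and 201 bp without both libraries that name Abcam. Mycn differed by 51.3 bp, resting on 1 library per arm, Mxi1 by -66.3 bp, all from the flanking Smndc1 site, Mxd1 by -32 bp and Mxd4 by -18.3 bp, each below the larger SD of its arms. Mycl and Mlx had too few SMC3 peaks to be tested.

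**Figure D4:**
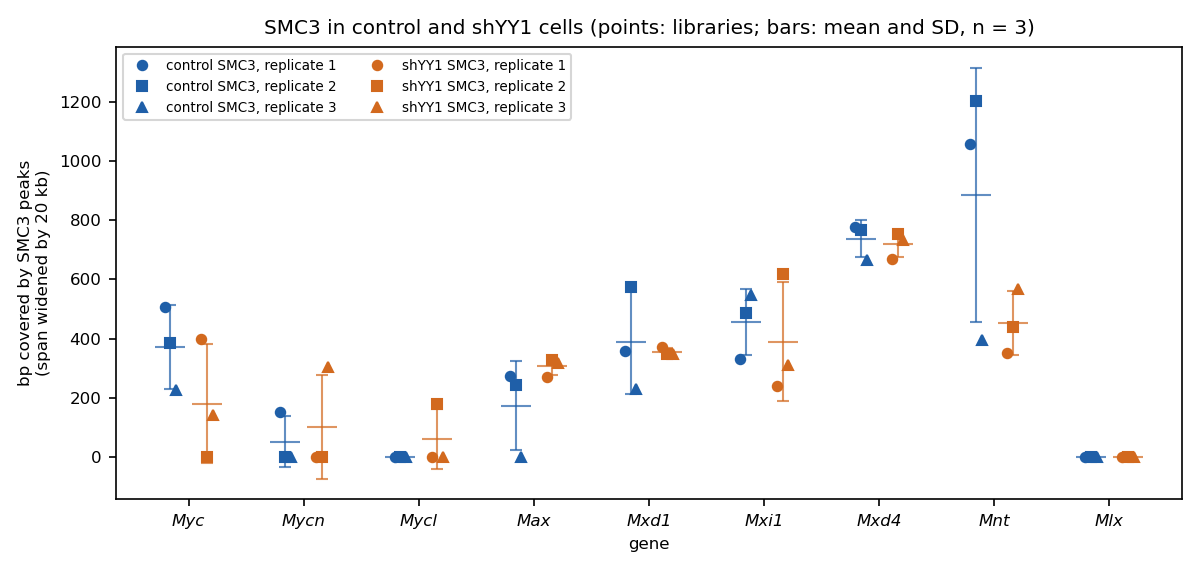
Base pairs of the widened span covered by SMC3 peaks in control (blue) and shYY1 (orange) cells for 9 genes; points are libraries, shaped by replicate, and bars give the mean and SD (n = 3). The arms overlap or touch at each gene, and the third control library (blue triangles) is the lowest control point at Myc, Max, Mxd1, Mxd4 and Mnt.

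Of the other genes of the network, Mxd3, Mga (a very large MAX partner) and Mlxip had H3K4me3 and YY1 at the start in 3 of 3 libraries and control SMC3 in 2. There shYY1 SMC3 was called in 0, 3 and 1 libraries. Mlxipl, the carbohydrate-response factor of liver, had no peak of any target at its start and SMC3 of both arms in its wider window in 3 of 3 libraries. The shYY1 mean was below control at all 4, with a median difference of -76.0 bp and no separated arms. Over all genes tested 73.6% had a lower mean in shYY1 and the median was -51.3 bp, so a lower mean at 4 of 4 genes is no result about the network.

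Among 15 genes of the SIN3 and histone deacetylase corepressor, all had H3K4me3 at a start, 12 had YY1, 10 control SMC3 and 9 shYY1 SMC3. Over all protein-coding genes 47.6% had H3K4me3 at a start. Of those with it, 61.3% had YY1, 29.7% control SMC3 and 22.8% shYY1 SMC3 there. Of the 12 tested between arms, 9 had a lower and 3 a higher mean in shYY1, beside 73.6% of all genes with a lower mean. Wholly below control were 2 (Ncor1 and Sap30), as were 5.53% of all genes. Ncor1, a corepressor scaffold, had 430, 286 and 209 bp in control and 190, 172 and 0 bp in shYY1 (exact permutation p = 0.1, adjusted p = 0.98). These bp are of the widened span, and at a start of Ncor1 SMC3 was called in 1 control and 0 shYY1 libraries. Arid4a was higher in shYY1, at 489, 493 and 267 bp against 333, 304 and 266 bp, and the arms overlapped (exact permutation p = 0.3). Ing2 differed by -144 bp and the histone chaperone Rbbp7 by 35 bp.

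Of 14 MYC cofactor genes, 14 had H3K4me3, 9 YY1, 4 control SMC3 and 2 shYY1 SMC3 at a start. Over all genes 47.6% had H3K4me3 there, and of those 61.3%, 29.7% and 22.8% had the last 3 targets. The cofactor counts of YY1 and control SMC3 were thus near the background. All 6 tested had a lower mean in shYY1, beside 73.6% of all genes, with a median difference of -139 bp. Cdk9, the elongation kinase, was wholly below control, as 5.53% of all genes were, with 151, 512 and 175 bp against 0, 0 and 142 bp. Ep400 and Actl6a, chromatin-remodelling subunits, carried SMC3 in all 6 libraries, with differences of -31 and -53.3 bp, and Ccnt1, the cyclin partner of Cdk9, differed by -197 bp. These bp are of the widened span. At a start, Cdk9 and Ccnt1 each had control SMC3 in 1 library and shYY1 SMC3 in 0. Of 12 genes that govern MYC turnover, 12 had H3K4me3, 11 YY1, 9 control SMC3 and 7 shYY1 SMC3, beside the same shares of all genes. Of the 9 tested, 5 had a lower and 4 a higher mean in shYY1, beside 73.6% of all genes with a lower mean. Their median difference was -109 bp, with no separated arms. Fbxw7, the ubiquitin ligase subunit that marks MYC for destruction, had 404, 422 and 225 bp in control and 360, 379 and 440 bp in shYY1. Btrc, a further ubiquitin ligase subunit, had 404, 206 and 0 bp in control and none in shYY1. The ubiquitin ligase Huwe1 differed by -174 bp and the deubiquitinase Usp28 by 40.3 bp.

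Among 25 known MYC target genes, 24 had H3K4me3, 22 YY1, 14 control SMC3 and 12 shYY1 SMC3 at a start. Over all genes 47.6% had H3K4me3 there, and of those 61.3%, 29.7% and 22.8% had the last 3 targets. Of the 20 tested, 14 had a lower and 6 a higher mean in shYY1, with a median difference of -25.8 bp. This is near the 73.6% of all genes tested that had a lower mean. Nop56, a ribosome-assembly gene, was the only one wholly below control, as 5.53% of all genes were. It had 289, 278 and 210 bp against 154, 0 and 0 bp (exact permutation p = 0.1, adjusted p = 0.98). Odc1, the polyamine enzyme, had 0, 133 and 0 bp in control and 223, 0 and 315 bp in shYY1. Nme1, a nucleoside diphosphate kinase, differed by -173 bp and the phosphatase gene Cdc25a by 29 bp. No gene of any list passed 0.05 after adjustment, which the design did not allow.

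The 5 genes whose covered bp over the 12 libraries were most like those of Myc, by Euclidean distance of log2(bp + 100), were Ism2 (1.10), Lrpprc (1.14), Zfand3 (1.20), Shank3 (1.22) and Spred1 (1.29). All 5 had SMC3 in every library but the second shYY1 library, as Myc did. The genes were picked by these same values, so this shared pattern follows from the choice and is no separate result.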

How the data were processed

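Per the labels, CUT&Tag libraries of HPC-7 cells were made with about 150000 cells per reaction. The submitters' processing notes name MACS2 2.2.9.1, Picard 3.1.1, Bowtie2 2.5.1 and cutadapt 4.5, with build mm10. Settings, peak threshold, duplicate handling and any use of IgG were not given in the sources used here. The authors deposited the 12 peak lists used here, 1 for each H3K4me3, YY1 and SMC3 library; starts were read as counting from 0 and are given here from 1. Gene spans came from RefSeq (GRCm38.p6), without exons, and starts from the RefSeq promoter table, which listed 8 of the 9 members. Where no start was listed, both ends of the span were used.

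A gene was called for a target when peaks of at least 2 of 3 libraries overlapped its window by at least 1 bp. Covered bp were compared between arms by an exact permutation test over 20 assignments, with Benjamini-Hochberg adjustment over genes with SMC3 in at least 2 of 6 libraries. Calculations used Python 3.11.15, numpy 2.4.6 and pandas 2.3.3 and were tested on simulated data. Members and lists were chosen with earlier results of these data known. Named were all members, the other network genes, the 2 highest and 2 lowest differences of each list, the neighbours of Myc and the 5 genes most like it. Chosen after their values were seen were Sap30, as the remaining member of a count of 2, and Pvt1, Trit1, Snrnp27, Smndc1, Haus3, Poln, Naglu, Coasy and Psmc3ip, as genes at the sites. The result of 1 further marker list is not reported here.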

Additional observations from a re-analysis of the deposited data

How the results depend on the processing

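The alternatives were other windows, peaks needed in 3 of 3 libraries, 50% of a peak inside the window, leaving out replicates, and, for SMC3 between arms, scaling by library, equal numbers of longest peaks, leaving out both libraries that name Abcam, and a replicate block. A stricter peak threshold was not run, as the lists hold no score. Counts of members with H3K4me3 were 9 throughout. With no widening of the span, YY1 was counted at 5 members, control SMC3 at 3 and shYY1 SMC3 at 3. Control SMC3 at a start was counted at 3 with 3 of 3 libraries; leaving out 1 control library, where both others must have a peak, gave 3 to 5. Members with separated arms numbered 1 (Max, above) after scaling to all bp covered in a library and 2 (Myc below, Max above) without both Abcam libraries. Leaving out 1 library gave 0 to 2. The share of all genes with separated arms was not counted under these settings. Scaling kept 3 libraries a side, but without that share its count cannot be set against a background. With libraries left out, arms separate more easily than with 3 a side. None of these counts is a result about the members. Scaling moved the median difference of all genes from -51.3 to 6.93 bp. Max stayed above, and Mnt and Myc below, control in each of 12 alternatives. Signs turned at 4 members. Mxd1 was 35.3 within 1000 bp of its start, 61.3 scaled, 35.3 with equal numbers of longest peaks and 61 without control replicate 2. Mxd4 was 2.33 at the start, 100.1 scaled and 26.5 without both Abcam libraries, and its values without 1 library ran from -54.2 to 6.33, above 0 without control replicate 1 (1.83) and without shYY1 replicate 1 (6.33). Without 1 library Mxi1 ran from -181 to 8.67 (above 0 without shYY1 replicate 1), Mycn from -50 (without shYY1 replicate 3) to 102 and Mxd1 from -110.5 to 61. The H3K4me3 length rank, median 85.0 over the members, was 80.7 to 85.5 when 1 replicate was left out. YY1 summit positions, averaged per gene, had a median of -207 bp from the start, and -228 to -186 without 1 replicate. Every member with a YY1 peak at a start was taken, among them Mycl with 1 library and Myc, measured from the end of its span. These alternatives were chosen after the data were seen.

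In the replicate block, 1 member, Myc, was lower in shYY1 in all 3 pairs of equal number, as were 838 of 6541 genes, with 130 higher in all 3. The labels do not say whether equal numbers mark paired samples. Same-numbered libraries deviated with correlations of 0.06, 0.00 and -0.03, and differently numbered ones with -0.056 to 0.059. Equal numbers were thus no more alike in covered bp, which cannot settle whether a culture or day was shared.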

Other observations

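Summits of different antibodies often fell on the same base. At Mxd1 1 pair of adjacent bases, chr6:86669455-86669456, held the summit in 9 of 12 libraries, and at Mnt chr11:74832149-74832150 did so in 9 of 12, H3K4me3 among them in both cases. In the member windows 12 of 75 overlapping pairs of a control SMC3 and a YY1 peak had summits within 1 bp, as had 14 of 62 pairs with shYY1 SMC3 (22.6%) and 28 of 132 pairs with H3K4me3 (21.2%). Over all peaks the shares were 15.9%, 15.2% and 13.5%, and by pair of libraries they ran from 13.4% to 17.6%, from 12.8% to 16.7% and from 10.7% to 14.6%. The members' share was thus close to that of all peaks for control SMC3 and above it for shYY1 SMC3 and H3K4me3, and the difference was not tested. The median distance over all overlapping pairs was 32 to 51 bp for control SMC3, 34 to 51 bp for shYY1 SMC3 and 62 to 87 bp for H3K4me3, by pair of libraries. Pairs that share a library are not independent, the count was chosen after the summits had been seen, and its cause was not tested.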
